A study of Homo sapiens with 6 samples.

Results

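The inflammasome genes described here are 10 human genes: the sensors NLRP1, NLRP3, NLRC4, AIM2 and MEFV, the adaptor PYCARD, the inflammatory caspases CASP1, CASP4 and CASP5, and the cytokine IL18. They were taken from the 20036 genes of the deposited expression table by matching its Ensembl identifiers to these symbols, and all 10 were found. Expression was measured by RNA-seq of poly(A) RNA in MV411 (MV4-11), an established line of human acute myeloid leukaemia with monocytic features, a rearranged KMT2A and a FLT3 internal tandem duplication. One group was treated with corilagin, an ellagitannin made by several medicinal plants, and the other with DMSO, each for 48 h, with 3 libraries per group and the genotype given as WT in both. No dose is given in the sources used here, and a single cell line was studied. The labels do not say whether the libraries of a group came from separate cultures, so the p-values may rest on technical spread alone. Levels are in FPKM, fragments scaled to the length of the gene and the total of the library, which sets genes side by side only as far as the gene lengths used hold.

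An inflammasome is a protein complex assembled in the cytosol when a sensor meets a microbial product or a sign of cell damage. The sensor recruits the adaptor ASC, the product of PYCARD, which gathers pro-caspase-1 so that it cleaves itself. Active caspase-1 then matures the cytokines IL-1 beta and IL-18 and cuts gasdermin D, whose freed part opens pores in the plasma membrane and ends in the lytic death called pyroptosis. CASP4 and CASP5 act in a second, noncanonical route in which the caspases themselves bind bacterial lipopolysaccharide in the cytosol and cut gasdermin D. Monocytes and the leukaemias that resemble them are known to carry most of this machinery.

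The libraries held 21611893, 19535906 and 18274227 recovered fragments after corilagin and 19630535, 20036241 and 17747658 in DMSO. Markers of monocytic leukaemia cells ranged widely in level. FLT3, the progenitor receptor kinase that carries the duplication in this line, made up a large part of their sum and lay between 307 and 318 FPKM after corilagin and between 186 and 261 FPKM in DMSO. CD4 and LYZ, a lysozyme of myeloid cells, averaged 105 and 42.8 FPKM after corilagin and 131 and 68.5 FPKM in DMSO. MPO, the peroxidase of neutrophil and monocyte precursors, averaged only 0.471 FPKM after corilagin and 1.58 FPKM in DMSO, and ITGAM, the integrin chain CD11b, 2.84 FPKM after corilagin and 1.39 FPKM in DMSO. The monocyte antigen CD14 was at 0.34 FPKM or less in every library. Of 12 tested monocytic markers of 13, 3 were called higher and 2 lower after corilagin, against 11.9% and 13.5% of all tested genes. The summed level of the 13 ran from 673 to 680 FPKM after corilagin and from 672 to 701 FPKM in DMSO. The T cell genes CD3D, CD3E and CD3G were at or near 0, although the cytotoxic granule gene NKG7 of that list lay between 45.9 and 51.3 FPKM after corilagin and between 43.7 and 63.4 FPKM in DMSO. The B cell gene MS4A1 was at 0 in every library, and 5 of 7 erythroid and platelet markers and 4 of 7 epithelial and fibroblast markers were at 0 in all 6. The 3 libraries labelled DMSO were not alike. On the log2 scale, the library labelled DMSO replicate 3 had a correlation across genes of 0.982 to 0.983 with the corilagin libraries and of 0.960 and 0.966 with the other DMSO libraries. In the eighth of tested genes with the lowest GC content, the corilagin libraries were on average 0.20 to 0.26 log2 units above each gene's mean over the 6 libraries and DMSO replicate 3 was 0.24 above it, while DMSO replicates 1 and 2 deviated by -0.50 and -0.43. Whether the label of this library is right was not tested, and every DMSO mean, ratio and call includes it unless stated otherwise. For these reasons results are also given with the GC trend of each library removed (GC correction), or without DMSO replicate 3.

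Of the 10 genes, 7 reached the mean of 1 FPKM required for testing, and 3 of these rose after corilagin (NLRP1, CASP4 and IL18), 1 fell (PYCARD) and 3 did not pass (NLRP3, MEFV and CASP1) in limma at a Benjamini-Hochberg adjusted p under 0.05. Over all 9868 tested genes, 11.9% were called higher and 13.5% lower by the same rule. The median log2 difference, corilagin minus DMSO on the log2(FPKM + 1) scale, was 0.33 over the 7 genes and 0.03 over all tested genes. All corilagin libraries lay above all DMSO libraries for 3 of the 7 genes and below them for 2, against 25.0% and 23.3% of all tested genes. The 7 genes stood at more than 1 FPKM in both group means, so none passed the filter through 1 group alone. NLRC4, AIM2 and CASP5 lay below the filter. In bulk RNA, fewer cells that carry a transcript and less of it per cell cannot be told apart.

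With the GC trend removed, 26.1% of all genes were called higher and 18.5% lower, and among the inflammasome genes 3 were called higher (NLRP1, MEFV and IL18) and 1 lower (PYCARD). CASP4 lost its call there and MEFV gained one. Without DMSO replicate 3, 40.8% of all genes were called higher and 36.5% lower, and 4 of the 7 genes were higher (NLRP1, CASP1, CASP4 and IL18) and 2 lower (NLRP3 and PYCARD). Over all genes, 1171 higher and 1331 lower calls became 2575 and 1828 with the GC trend removed, and 1620 and 1059 when each library was rescaled to the same FPKM sum. That rescaling moved the median of all genes to 0.14 from 0.03. No exact 2-sided permutation test on a single gene could pass, since the smallest p that 3 against 3 libraries allow is 0.1, the value found for each of the 10 genes other than MEFV (p = 0.3), CASP1 (p = 0.2) and CASP5 (p = 1.0).

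**Figure D1:**
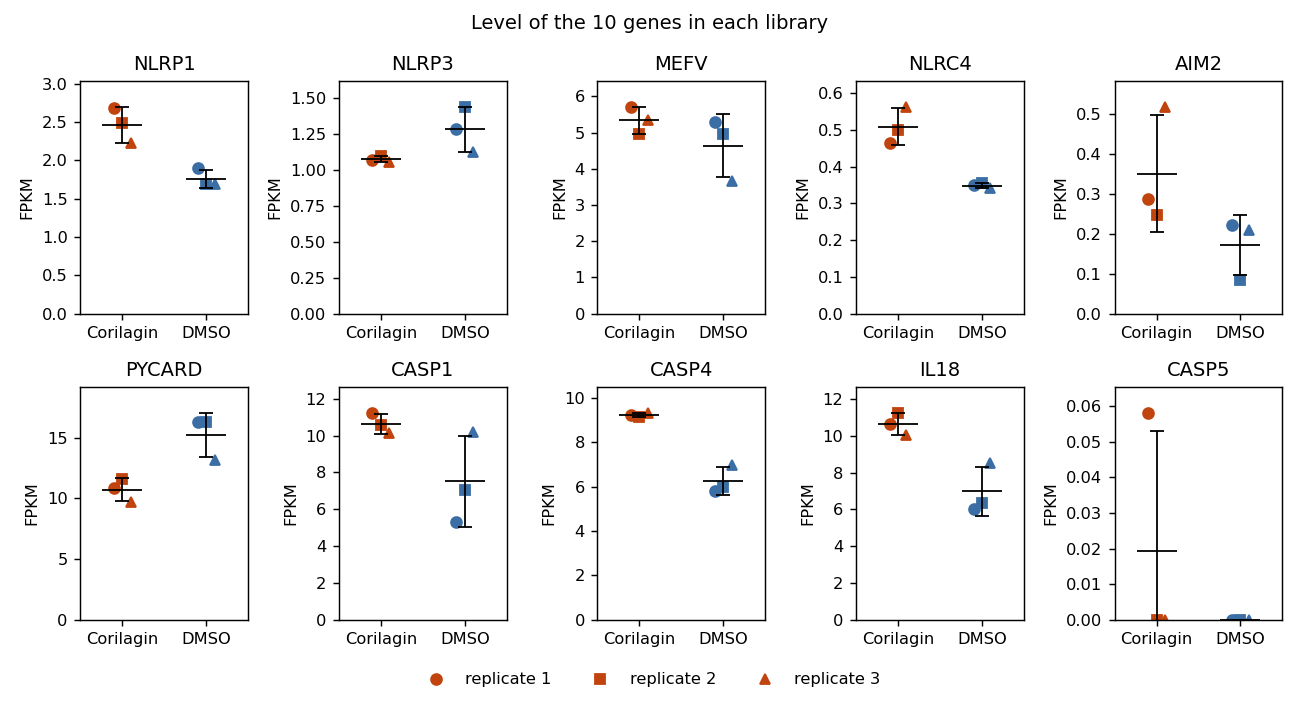
Level in FPKM (vertical axes, from 0, a scale for each gene) of the 10 inflammasome genes in each corilagin and DMSO library. Symbols mark the replicate number, the wide bar is the mean and the whiskers are the SD (n = 3). The corilagin libraries sit above all DMSO libraries for NLRP1, NLRC4, AIM2, CASP4 and IL18 and below them for NLRP3 and PYCARD, and DMSO replicate 3 lies within the corilagin range for CASP1.

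PYCARD, IL18, CASP1 and CASP4 had the highest mean levels in both groups. After corilagin PYCARD averaged 10.7 ± 0.926 FPKM, IL18 10.6 ± 0.588 FPKM and CASP1 10.6 ± 0.544 FPKM (SD, n = 3), and the ranges of these 3 overlapped. CASP4 followed at 9.23 ± 0.0860 FPKM, below the lowest library of CASP1. In DMSO PYCARD alone was on top at 15.2 ± 1.80 FPKM, with CASP1, IL18 and CASP4 at 7.52 ± 2.48, 6.98 ± 1.35 and 6.25 ± 0.622 FPKM and overlapping ranges. In the FPKM as deposited, the sensors came next in the same order in both groups: MEFV, NLRP1, NLRP3, NLRC4 and AIM2, with ranges that did not overlap except those of NLRC4 and AIM2 after corilagin. The place of AIM2 depends on the gene length used: at its exonic length in GENCODE release 29 it would average 1.12 FPKM after corilagin and 0.551 FPKM in DMSO. At such lengths it would lie above NLRC4 in both group means (0.532 FPKM after corilagin and 0.364 FPKM in DMSO), with a range around that of NLRP3 after corilagin. CASP5 came last. Summed over the 10 genes, the level was 49.0 to 52.2 FPKM after corilagin and 42.5 to 45.9 FPKM in DMSO.

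Among the sensors, NLRP1 rose. Its product is held inactive by the peptidases DPP8 and DPP9 and is set free by proteases of pathogens and by double-stranded RNA. NLRP1 (ENSG00000091592, GRCh38 chromosome 17, 5499427 to 5619424, minus strand) had 2.68, 2.49 and 2.22 FPKM after corilagin, against 1.90, 1.69 and 1.69 FPKM in DMSO. Every corilagin library lay above every DMSO library, from 605 to 1171 fragments per library. The ratio of means was 1.40, the log2 difference 0.33 (SE 0.0835) and the limma adjusted p 0.0323. It was 0.52 on the log2 scale after GC correction (limma adjusted p = 0.00360), and genes of like GC content (within 2 percentage points of 55.1%) had a median log2 difference of -0.15 in the values as deposited. Against DMSO replicate 3 alone the ratio was 1.46. The call was lost when any 1 library other than DMSO replicate 3 was left out (limma adjusted p between 0.0650 and 0.129), without the filter on low values (0.0576) and after quantile normalization (0.126). The length behind its FPKM, 20157 bases, exceeds the 12808 exonic bases of GENCODE release 29, so its level relative to other genes depends on the annotation.

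NLRP3, which senses potassium efflux and organelle damage and is usually raised by a priming signal through NF-kappa B, did not pass. NLRP3 (ENSG00000162711, chromosome 1, 247416156 to 247449108, plus strand) had 1.07, 1.10 and 1.06 FPKM after corilagin and 1.28, 1.44 and 1.12 FPKM in DMSO. The corilagin libraries lay below all DMSO libraries, but the gap to DMSO replicate 3 was only 0.0274 FPKM, at 92 to 137 fragments per library. The ratio of means was 0.838 and the log2 difference -0.14 (SE 0.0759, limma adjusted p = 0.195). GC correction left a log2 difference of -0.03 (limma adjusted p = 0.718), and the gene passed only in the fit without DMSO replicate 3 (log2 difference -0.19, limma adjusted p = 0.0349).

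MEFV encodes pyrin, which responds when bacterial toxins switch off RHOA and is mutated in familial Mediterranean fever. MEFV (ENSG00000103313, chromosome 16, 3242028 to 3256627, minus strand) was the most abundant sensor among the 10 genes. It had 5.70, 4.97 and 5.35 FPKM after corilagin and 5.28, 4.97 and 3.65 FPKM in DMSO. The groups overlapped, and the lowest of the 6 libraries was DMSO replicate 3. The ratio of means was 1.15 and the log2 difference 0.18 (SE 0.129, limma adjusted p = 0.293). Once each library's GC trend was taken out, the difference was 0.38 and passed (limma adjusted p = 0.00286), while genes of like GC content had a median of -0.16 in the values as deposited.

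NLRC4 and AIM2 were low. NLRC4 acts with NAIP proteins as the receptor of bacterial flagellin and secretion system parts, and AIM2 binds double-stranded DNA in the cytosol. NLRC4 (ENSG00000091106, chromosome 2, 32224453 to 32265854, minus strand) had 0.464, 0.499 and 0.563 FPKM after corilagin and 0.349, 0.355 and 0.342 FPKM in DMSO, from 37 to 39 and from 23 to 27 fragments per library. Its libraries did not overlap, and in the limma fit without a filter on low values, which called 5.87% of 15921 genes higher and 6.44% lower, it was called higher (ratio of means 1.46, log2 difference 0.16, adjusted p = 0.0351). That call did not hold after GC correction (limma adjusted p = 0.106), in 6 of 9 alternatives in all, or without any 1 library other than DMSO replicate 3 (0.0849 to 0.118). AIM2 (ENSG00000163568, chromosome 1, 159062484 to 159147096, minus strand) had 0.288, 0.247 and 0.519 FPKM after corilagin and 0.222, 0.0853 and 0.210 FPKM in DMSO. The corilagin libraries again lay above all DMSO libraries, at 31 to 61 fragments after corilagin and 11 to 28 in DMSO, and the gene did not pass (ratio 2.04, log2 difference 0.20, SE 0.0849, limma adjusted p = 0.157). Its log2 difference was 0.04 with the GC trend removed. The length behind the AIM2 values is 6426 bases, against 2009 exonic bases in GENCODE release 29.

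PYCARD, whose product ASC joins sensors to caspase-1 through a pyrin domain and a CARD, was the one gene of the 10 that fell. PYCARD (ENSG00000103490, chromosome 16, 31201485 to 31203450, minus strand) had 10.9, 11.6 and 9.74 FPKM after corilagin, against 16.3, 16.3 and 13.1 FPKM in DMSO. All corilagin libraries were below all DMSO libraries, at 296 to 391 fragments after corilagin and 388 to 542 in DMSO. The level after corilagin was 0.705 of that in DMSO, with a log2 difference of -0.46 (SE 0.112, limma adjusted p = 0.0283). PYCARD is rich in GC (61.7%), and genes of like GC content had a median of -0.20. With the GC trend removed the log2 difference was -0.20 (limma adjusted p = 0.0308), and against DMSO replicate 3 alone the ratio was 0.817. Leaving out any 1 library other than DMSO replicate 3 ended the call (limma adjusted p between 0.0847 and 0.122). The antisense gene PYCARD-AS1 covers 991 exonic bases of PYCARD on the other strand, and since strand-specific counting is not stated, reads of the pair cannot be told apart. The promoter of PYCARD, from 250 bases before to 50 bases after its start, is shown because it belongs to the single gene that fell (RefSeq, GRCh38.p14, chr16:31202711-31203010, minus strand), with the letters AGGAAGT, the ETS core as bound by PU.1, in capitals where they lie on the opposite strand as ACTTCCT.
PYCARD promoter: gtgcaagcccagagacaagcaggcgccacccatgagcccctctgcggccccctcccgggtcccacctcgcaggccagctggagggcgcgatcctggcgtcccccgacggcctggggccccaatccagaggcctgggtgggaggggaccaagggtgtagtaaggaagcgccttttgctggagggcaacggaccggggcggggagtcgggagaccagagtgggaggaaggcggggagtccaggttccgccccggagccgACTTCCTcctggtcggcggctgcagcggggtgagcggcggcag

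The RefSeq start used for this window lies inside the gene span given above, so the window falls within the gene as GENCODE release 29 draws it. It is 72.0% GC, and the match begins at base 8 after the start. The motif was found on either strand in 8.24% of 35116 RefSeq promoters of the same length. SPI1, which encodes PU.1, had 113, 112 and 109 FPKM after corilagin and 158, 157 and 120 FPKM in DMSO and did not pass (log2 difference -0.37, limma adjusted p = 0.0566). With the GC trend removed the log2 difference of SPI1 was -0.07 (limma adjusted p = 0.115), and against DMSO replicate 3 alone its ratio was 0.928. A link between PU.1 and the level of PYCARD was not tested.

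Of the caspases, CASP4 rose, CASP1 was higher on average without passing, and CASP5 was almost absent. CASP1 (ENSG00000137752, chromosome 11, 105025443 to 105035250, minus strand) had 11.2, 10.6 and 10.1 FPKM after corilagin and 5.31, 7.04 and 10.2 FPKM in DMSO. Corilagin libraries stood above DMSO replicates 1 and 2, and DMSO replicate 3 lay inside the corilagin range. The ratio of means was 1.42 (log2 difference 0.49, SE 0.195, limma adjusted p = 0.0952), 1.72 without DMSO replicate 3 (limma adjusted p = 1.92e-05) and 1.04 against DMSO replicate 3 alone. With the GC trend removed the log2 difference was 0.23 (limma adjusted p = 0.109), and genes of like GC content (around 41.0%) had a median of 0.30.

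CASP4 (ENSG00000196954, chromosome 11, 104942866 to 104969436, minus strand) had 9.22, 9.14 and 9.31 FPKM after corilagin, against 5.82, 5.96 and 6.96 FPKM in DMSO. The corilagin libraries were close together and above all DMSO libraries, at 1136 to 1330 fragments after corilagin and 763 to 825 in DMSO. The ratio of means was 1.48, the log2 difference 0.50 (SE 0.0898) and the limma adjusted p 0.0127. Removing the GC trend left a log2 difference of 0.13 and ended the call (limma adjusted p = 0.285). CASP4 has a low GC content (38.3%), and the median log2 difference of genes of like GC content was 0.41. Against DMSO replicate 3 alone the ratio was 1.32. The call was also lost without any 1 corilagin library or without DMSO replicate 2 (limma adjusted p between 0.0654 and 0.0740).

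CASP5 (ENSG00000137757, chromosome 11, 104994235 to 105023168, minus strand) had 2 fragments, or 0.0581 FPKM, in corilagin replicate 1 and no fragment in the other libraries of either group. A count of 0 allows up to 3 fragments, which is 0.0963 and 0.103 FPKM in corilagin replicates 2 and 3 and 0.0939 to 0.106 FPKM in the DMSO libraries, for counting error only. A difference was therefore not detectable at this depth.

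CASP4, CASP5 and CASP1 lie next to each other on chromosome 11 within 92.4 kb, all on the minus strand, and CARD16, which encodes a CARD-only protein that binds caspase-1, follows within 159 kb of the first base of CASP4. CASP5 sits between its expressed neighbours, 24.8 kb from CASP4 and 2.27 kb from CASP1. CARD16 averaged 3.11 ± 0.0355 FPKM after corilagin and 1.96 ± 0.597 FPKM in DMSO (SD, n = 3) and rose by a ratio of 1.59 (log2 difference 0.50, limma adjusted p = 0.0491). Removing the GC trend ended the CARD16 call (limma adjusted p = 0.0729), and it was lost in most alternatives, among them those without any 1 library other than DMSO replicate 3 (0.0779 to 0.150). CARD16 and CASP1 share 180 windows of 50 bases, 10.6% of those of CARD16 and 4.37% of those of CASP1, and no window of 150 bases is shared by any pair among the 10 genes and CARD16. Reads that lie wholly within shared stretches could be counted for either gene or for none.

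**Figure D2:**
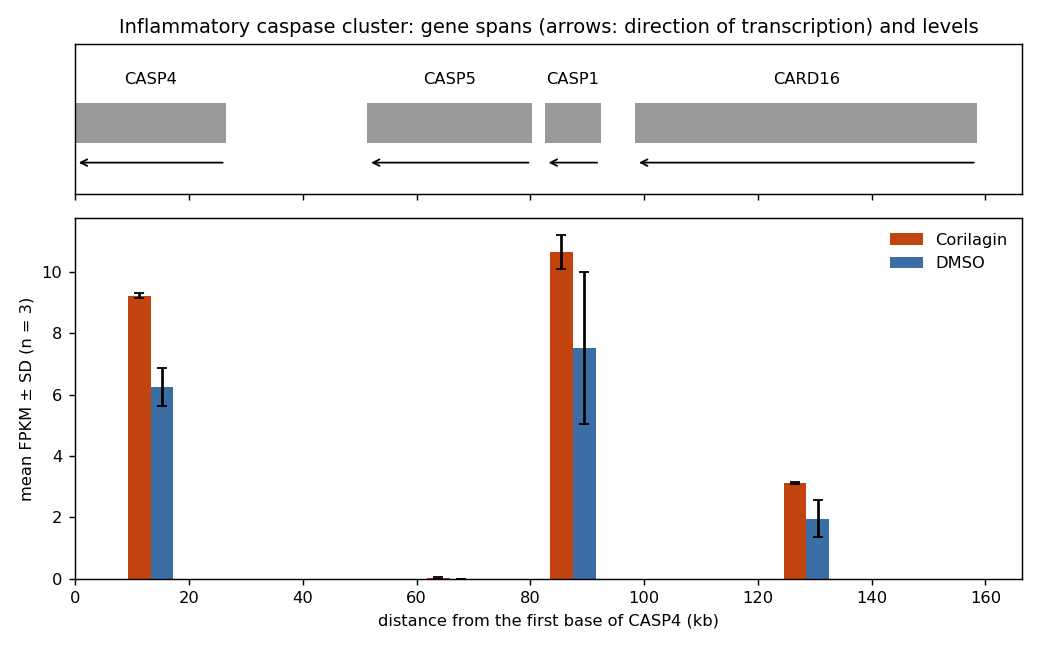
Upper panel, spans of CASP4, CASP5, CASP1 and CARD16 along the chromosome, with arrows for the direction of transcription; lower panel, mean FPKM ± SD (n = 3) after corilagin and in DMSO, with the distance from the first base of CASP4 in kb on the horizontal axis. CASP5 lies at or near 0 between CASP4 and CASP1, which stand at 9.23 and 10.6 FPKM after corilagin.

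The coding bases around the catalytic cysteine show how alike the 3 caspases are, which matters for telling their reads apart (GENCODE release 29 transcripts, chromosome 11, 5′ to 3′). Capitals mark the codons of the conserved pentapeptide that holds this cysteine.
CASP1: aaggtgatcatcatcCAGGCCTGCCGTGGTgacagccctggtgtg
CASP4: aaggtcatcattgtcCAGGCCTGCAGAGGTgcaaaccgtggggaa
CASP5: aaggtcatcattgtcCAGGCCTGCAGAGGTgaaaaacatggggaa

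CASP4 and CASP5 have 42 of these 45 bases in common and all 15 capitals, and CASP1 shares 33 of 45 bases and 13 of 15 capitals with each of them. Over their whole transcripts CASP4 and CASP5 share 10 windows of 50 bases. The promoters of this pair are shown because the genes are neighbours of like sequence with levels far apart (RefSeq, GRCh38.p14, minus strand, CASP4 at chr11:104968525-104968824 and CASP5 at chr11:105023119-105023418). The RefSeq start of CASP4 also lies inside its gene span given above. Capitals mark AGGAAGT or its reverse complement in both, and GAAANNGAA, the core of the interferon response element, in CASP5.
CASP4 promoter: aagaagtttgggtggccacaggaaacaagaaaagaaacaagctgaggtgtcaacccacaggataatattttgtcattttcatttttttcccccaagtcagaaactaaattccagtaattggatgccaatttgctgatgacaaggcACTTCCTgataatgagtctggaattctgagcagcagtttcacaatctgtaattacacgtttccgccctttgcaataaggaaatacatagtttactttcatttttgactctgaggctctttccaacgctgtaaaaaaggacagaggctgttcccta
CASP5 promoter: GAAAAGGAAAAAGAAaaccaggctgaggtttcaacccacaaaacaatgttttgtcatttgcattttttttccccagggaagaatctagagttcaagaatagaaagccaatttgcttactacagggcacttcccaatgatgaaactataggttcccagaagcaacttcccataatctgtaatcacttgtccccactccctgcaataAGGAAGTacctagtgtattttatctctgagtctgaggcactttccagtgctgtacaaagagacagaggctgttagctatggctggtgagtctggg

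Aligned from end to end, the 2 promoters have 212 identical bases of 278 aligned pairs, or 76.3%. CASP4 holds the ETS core at base -105 on the opposite strand, and CASP5 holds it at base -45. The interferon response element core occurs at bases -250 and -244 of CASP5, as overlapping matches, and not in this window of CASP4, and 8.11% of all promoters of this length hold it on either strand. Neither window held GGGACTTTC, a kappa B site found in 0.387% of promoters, or TGACTCA, an AP-1 site found in 4.95%. Promoters were matched for 7 of the 10 genes, the others being NLRP1, CASP1 and IL18. Besides those printed, the AIM2 promoter held the interferon response element core at base -189 and the AP-1 site at base -155, and 1 of 3 NLRC4 promoters held the interferon response element core at base -87.

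IL18 encodes a cytokine of the IL-1 family that is stored as an inactive precursor, cut by caspase-1 and known for inducing interferon gamma. IL18 (ENSG00000150782, chromosome 11, 112143251 to 112164117, minus strand) had 10.6, 11.2 and 10.1 FPKM after corilagin, against 6.03, 6.37 and 8.53 FPKM in DMSO. All corilagin libraries lay above all DMSO libraries, and DMSO replicate 3 was the nearest to them, at 480 to 599 fragments after corilagin and 309 to 395 in DMSO. The ratio of means was 1.53 (log2 difference 0.56, SE 0.129, limma adjusted p = 0.0252). The log2 difference was 0.22 with the GC trend removed and still passed (limma adjusted p = 0.0250), with a median of 0.37 for genes of like GC content in the values as deposited. Against DMSO replicate 3 alone the ratio was 1.25. The call was made in all 10 alternatives that keep the 6 libraries, and was lost without any 1 library other than DMSO replicate 3 (limma adjusted p between 0.0764 and 0.109).

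**Figure D3:**
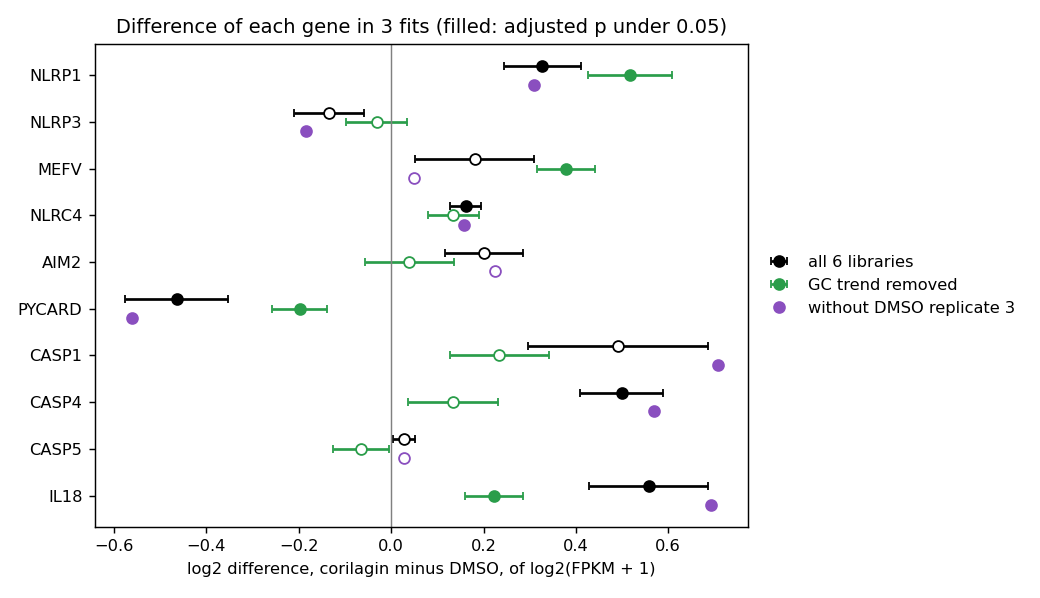
Log2 difference of each inflammasome gene, corilagin minus DMSO, on the log2(FPKM + 1) scale, in the limma fit on all 6 libraries, with the GC trend removed, and without DMSO replicate 3; filled points have an adjusted p under 0.05, and whiskers are the SE (none drawn for the last fit). NLRC4, AIM2 and CASP5 come from fits without a filter on low values. CASP4 goes to 0.13 from 0.50 when the GC trend is removed, and NLRP1 goes to 0.52 from 0.33.

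**Figure D4:**
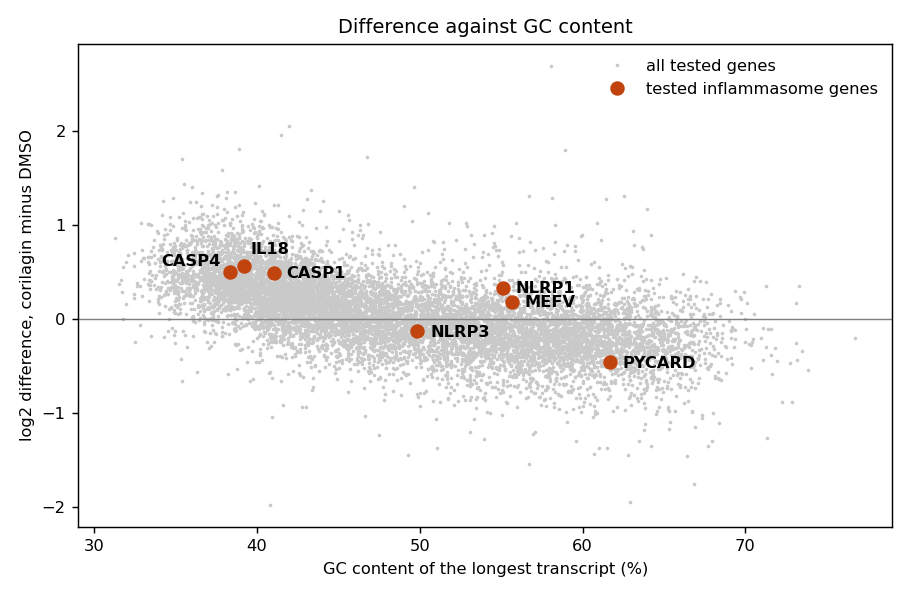
Log2 difference, corilagin minus DMSO, against the GC content of the longest transcript in percent, for all tested genes (grey) and the 7 tested inflammasome genes (orange). CASP4, IL18 and CASP1, at 38.3 to 41.0% GC, lie in a range where most genes are above 0, and NLRP1 and MEFV, at 55.1 and 55.7% GC, lie above most genes of like content.

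For the genes called in the fit, the closest patterns over the 6 libraries were sought among the 6567 tested protein-coding genes that averaged 5 FPKM or more, as the root-mean-square distance between centred log2 values. Closest to CASP4 were TMEM59, ZC3H7A and JAK1, at distances of 0.0131, 0.0181 and 0.0225, and closest to IL18 were COMMD2, VEZF1 and UBE2J1, at 0.0343, 0.0382 and 0.0390. RABIF, PCBP4 and TP53RK lay nearest to NLRP1, at 0.0253, 0.0349 and 0.0429. The log2(FPKM + 1) scale understates changes of a low gene such as NLRP1, and these neighbours changed by smaller ratios of means than NLRP1. PLXNB2, MECR and RBM14 lay nearest to PYCARD, at 0.0276, 0.0276 and 0.0321.

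In the fit on all 6 libraries, the partners and regulators of the sensors that passed were higher after corilagin. Of 17 tested genes of 26 matched, 6 rose, none fell and 11 did not pass, against 11.9% of all tested genes called higher and 13.5% lower. The median log2 difference of the list was 0.48, against 0.03 over all tested genes, and 0.23 against 0.05 with the GC trend removed. At an unadjusted limma p under 0.05, 1 gene of this list was lower (DPP9), and the share of all genes at that rule is not given here. Limma-voom on recovered fragments called 5 higher and 0 lower, against 1016 higher and 1496 lower of all 9868 tested genes. The rises were TXNIP, which binds thioredoxin and has been described as an NLRP3 partner, P2RX7, the ATP-gated channel that lets potassium out, GBP2, a guanylate-binding protein of the interferon response, and CARD8, CARD16 and NLRP12. TXNIP averaged 70.6 ± 2.14 FPKM after corilagin and 31.3 ± 3.43 FPKM in DMSO (ratio 2.25), and P2RX7 averaged 4.25 ± 0.187 FPKM after corilagin and 2.56 ± 0.175 FPKM in DMSO (ratio 1.66, limma adjusted p = 0.00680). GBP2 averaged 5.70 ± 0.190 FPKM after corilagin and 3.57 ± 0.604 FPKM in DMSO (ratio 1.60, limma adjusted p = 0.0165). CARD8, a sensor that activates caspase-1 without ASC and is restrained by DPP8 and DPP9, averaged 24.8 ± 0.171 FPKM after corilagin and 17.6 ± 2.17 FPKM in DMSO. CARD8 rose by a ratio of 1.41 (log2 difference 0.48, limma adjusted p = 0.0180; 0.19 and 0.0250 with the GC trend removed). NEK7, the kinase that NLRP3 needs for assembly, had 19.6, 19.1 and 20.2 FPKM after corilagin and 6.94, 6.83 and 18.9 FPKM in DMSO. NEK7 did not pass (limma adjusted p = 0.0760; 0.0405 with the GC trend removed), and DMSO replicate 3 lay next to the corilagin libraries, far above DMSO replicates 1 and 2. NLRP12 averaged 1.45 ± 0.0848 FPKM after corilagin and 0.748 ± 0.180 FPKM in DMSO, so it passed the filter only through the corilagin libraries. For that reason the count of called genes and the median of this list are a description. Of the 17 genes, 8 were higher and 2 lower after GC correction, against 26.1% and 18.5% of all genes. Without DMSO replicate 3, 12 were higher and 3 lower, against 40.8% and 36.5% of all genes. Of the 15 rises and falls of the pathway lists named by their size, 4 kept their call with each library left out in turn (TXNIP, LY96, IFIT2 and IFIT3), and 11 lost it without at least 1 library. LY96 kept it with a limma adjusted p as high as 0.0492. Over all tested genes, 1171 were called higher and 1331 lower. Without any 1 library other than DMSO replicate 3, these counts were 131 to 369 and 176 to 483.

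Downstream, 3 genes of the IL-1 system rose and the pore-forming gasdermin D fell. Of 7 tested genes of 18, 3 rose, 1 fell and 3 did not pass, against 11.9% of all tested genes called higher and 13.5% lower. The median log2 difference was 0.09, and 0.28 with the GC trend removed. IL1B, the other cytokine that caspase-1 matures, had 6.23, 7.61 and 8.57 FPKM after corilagin and 4.50, 4.14 and 4.37 FPKM in DMSO (limma adjusted p = 0.0121). IL1RN, the secreted antagonist of the IL-1 receptor, averaged 8.31 ± 0.256 FPKM after corilagin and 5.35 ± 0.412 FPKM in DMSO (ratio 1.55), so the agonist and its antagonist both rose. IL1RAP, the shared signalling chain of IL-1 receptors, averaged 18.4 ± 0.253 FPKM after corilagin and 12.1 ± 3.67 FPKM in DMSO (ratio 1.52, limma adjusted p = 0.0471). The IL1RAP call was lost without the filter (limma adjusted p = 0.0800), with equal library sums (0.0523), with median-of-ratios scaling (0.0511) and without any 1 library other than DMSO replicate 3 (0.135 to 0.160), and against DMSO replicate 3 alone the ratio was 1.13. Of the ligand-binding chains, IL18R1 was at 0 in all 6 libraries and IL1R1 reached at most 0.0350 FPKM. GSDMD, the gasdermin cut by caspases 1, 4 and 5, had 8.81, 9.18 and 8.21 FPKM after corilagin and 12.3, 12.6 and 10.5 FPKM in DMSO, a ratio of 0.740 (limma adjusted p = 0.0304), and did not pass after GC correction (log2 difference -0.10, limma adjusted p = 0.207). GSDME, which caspase-3 cuts, stayed below the filter, with 0.832 ± 0.0524 FPKM after corilagin against 0.979 ± 0.0401 FPKM in DMSO. Of the 7 genes, 4 were higher and none lower after GC correction, against 26.1% and 18.5% of all genes. At an unadjusted limma p under 0.05, 0 were lower in that fit, and the share of all genes at that rule is not given here. Without DMSO replicate 3, 3 were higher and 2 lower, against 40.8% and 36.5% of all genes.

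The genes of the priming step, in which Toll-like receptors and NF-kappa B raise NLRP3 and IL1B, did not move in 1 direction. Of 19 tested genes of 23, 4 rose, 2 fell and 13 did not pass, against 11.9% of all tested genes called higher and 13.5% lower, with a median log2 difference of 0.08. After GC correction 7 were higher and 2 lower, against 26.1% and 18.5% of all genes. Without DMSO replicate 3, 8 were higher and 7 lower, close to the 40.8% and 36.5% of all genes. LY96, the lipopolysaccharide-binding partner of TLR4, averaged 12.4 ± 1.69 FPKM after corilagin and 6.87 ± 0.786 FPKM in DMSO (ratio 1.81), which did not pass once the GC trend was removed (limma adjusted p = 0.259). TLR1 and TLR2, which pair to bind bacterial lipopeptides, rose by ratios of 1.78 and 1.53 (limma adjusted p = 0.0423 and 0.0482). Against DMSO replicate 3 alone the ratios were 1.21 and 1.13. With the GC trend removed the log2 difference of TLR1 was 0.32 instead of 0.65 and that of TLR2 0.31 instead of 0.64, and both still passed (limma adjusted p = 0.0124 and 0.00723). Both calls were lost without the filter (limma adjusted p = 0.0785 and 0.0825) and without any 1 library other than DMSO replicate 3 (0.115 to 0.163). The falls were IRAK1, a kinase downstream of these receptors, and IRF8, a transcription factor of the monocyte lineage, at 0.665 and 0.706 of their DMSO levels. NFKB1 averaged 4.55 ± 0.123 FPKM after corilagin and 4.86 ± 0.410 FPKM in DMSO, RELA averaged 13.8 ± 0.784 FPKM after corilagin and 16.8 ± 2.59 FPKM in DMSO, and neither passed (limma adjusted p = 0.492 and 0.137).

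Interferon is known to raise AIM2, CASP4 and the guanylate-binding proteins. Interferon-induced genes rose where they passed in the fit on all 6 libraries. Of 9 tested genes of 15 matched, 6 rose, none fell and 3 did not pass, against 11.9% of all tested genes called higher and 13.5% lower, with a median log2 difference of 0.40. After GC correction 6 were higher and 0 lower, against 26.1% and 18.5% of all genes. Without DMSO replicate 3, 8 were higher and 1 lower, against 40.8% and 36.5% of all genes. No gene of this list was lower at an unadjusted limma p under 0.05, a rule for which the share of all genes is not given here. Limma-voom called 6 higher and 0 lower, against 1016 higher and 1496 lower of all 9868 tested genes. IFIT2, which binds viral RNA, had 1.97, 1.76 and 1.41 FPKM after corilagin and 0.259, 0.357 and 0.455 FPKM in DMSO (ratio 4.80, limma adjusted p = 0.00250). IFIT3 averaged 1.73 ± 0.371 FPKM after corilagin and 0.382 ± 0.130 FPKM in DMSO (ratio 4.54), and IFI6, a mitochondrial and endoplasmic reticulum protein, 12.9 ± 1.34 FPKM after corilagin and 6.70 ± 1.44 FPKM in DMSO (ratio 1.92). IFI44, OAS2 and STAT2 were the other rises. IFIT2 and IFIT3 were low and passed the filter only through the corilagin libraries, so the count of called genes and the median of this list are a description. ISG15 averaged 8.81 ± 0.824 FPKM after corilagin and 10.1 ± 0.794 FPKM in DMSO and did not pass. It was the gene called lower without DMSO replicate 3 (log2 difference -0.23, limma adjusted p = 0.0107).

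**Figure D5:**
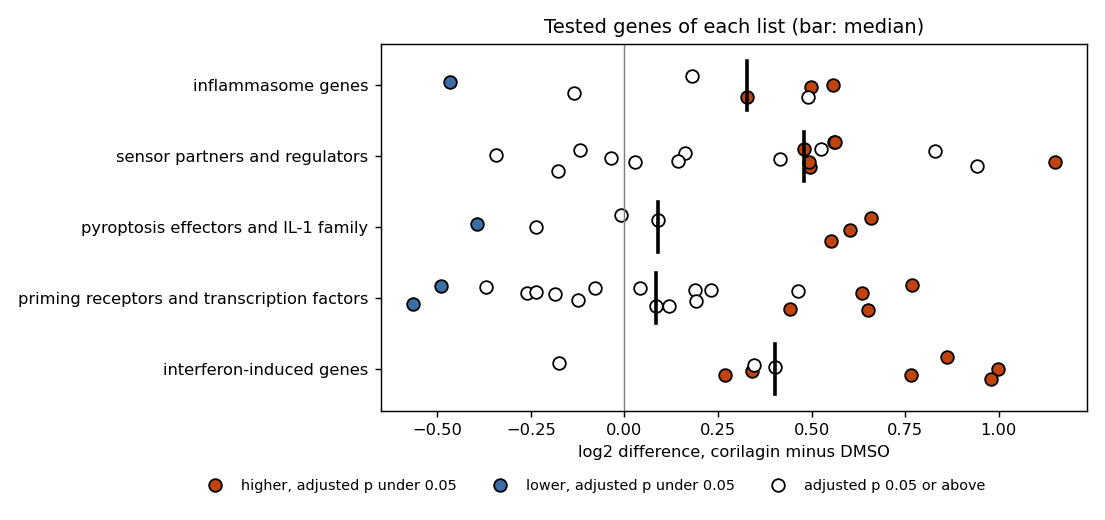
Log2 difference, corilagin minus DMSO (horizontal axis), of the tested genes of each list; the vertical bar is the list's median, orange points were called higher, blue points lower, and open points did not pass (limma adjusted p of 0.05 or above). The medians are 0.33 for the inflammasome genes, 0.48 for sensor partners, 0.09 for pyroptosis effectors and the IL-1 family, 0.08 for priming genes and 0.40 for interferon-induced genes. Sensor partners and interferon-induced genes include genes that passed the filter only through the corilagin libraries (NLRP12, IFIT2 and IFIT3), so their medians are a description.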

How the data were processed

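RNA was isolated by a chloroform method, mRNA was captured on poly-T beads, and libraries were made by random priming and read as pairs, per the labels' protocols. The submitters' processing notes name HISAT2 2.1.0 and the build GRCh38, fastp 0.22.0, HTSeq 0.9.1 and DESeq 1.38.3, with no settings. Strand is not stated. The authors deposited FPKM for 20036 genes in 6 libraries; no source used here gives the annotation release.

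The values were whole multiples of 1 fragment, which gave fragments for 100.0% of the 15921 genes above 0 (tolerance 0.01, a share that follows from the method; 447 genes were scaled by gene length). Symbols were matched for 20011 genes and GC content (longest GENCODE release 29 transcript) for 9859 of 9868 tested genes, and 3 of 132 symbols in the lists had no match. The main test, 2-sided, used limma 3.58.1 (R 4.3.3; eBayes with a mean-variance trend) on log2(FPKM + 1) for genes averaging at least 1 FPKM over the 6 libraries, with Benjamini-Hochberg adjustment over all of them and a threshold of 0.05. The log2 differences on that scale understate changes of low genes. Genes below the mean of 1 FPKM were taken from the fit without the filter. The GC trend was removed per library with a natural spline of 5 degrees of freedom, which also takes out true differences that follow GC content. Alternatives were pseudocounts of 0.1 and 0.5, no filter, 3 other scalings, a replicate block, limma-voom on recovered fragments and leaving out each library. Levels at the exonic lengths of GENCODE release 29 were added after seeing the data. The fits were tested on simulated data. Named genes were the 10 members, up to 3 rises and 3 falls per pathway list by size of the log2 difference, GSDMD, IL1B, NEK7, CARD8, CARD16, TXNIP and GSDME, and the 3 closest patterns per called member. Further genes named beside small counts, and SPI1, FLT3, CD4, LYZ, MPO, ITGAM, NKG7, CD14, MS4A1, IL1R1, IL18R1, NFKB1, RELA, DPP9 and ISG15, were chosen after their values were seen. The members, lists and tests were chosen with earlier results of these data known. Results for 2 further genes of the lists are not reported here.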

Additional observations from a re-analysis of the deposited data

How the results depend on the processing

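The number of inflammasome genes called higher was 3 as reported and 2 or 3 in the alternatives that keep all 6 libraries; it ran from 0 to 4 when 1 library was left out, with 4 only without DMSO replicate 3. The number called lower was 1, ran from 0 to 2 when 1 library was left out, and was 0 with the replicate block and the GC trend removed together (PYCARD, limma adjusted p = 0.0579). Over all genes, the 1171 higher calls became 2575 with the GC trend removed and 2467 with the replicate block added to it. Leaving out 1 library gave 131 to 4030 higher and 176 to 3597 lower calls, the highest of each without DMSO replicate 3; the cause was not tested. On recovered fragments limma-voom called 1016 genes higher and 1496 lower, with the same 3 and 1 inflammasome counts. The log2 difference of CASP5, 0.03 from 2 fragments, was -0.065 with the GC trend removed, with or without the block, and no other inflammasome gene changed direction. The replicate block alone gave 3 genes higher and 1 lower among the inflammasome genes, and 1547 and 1330 over all genes; it ended the call of NLRC4 (limma adjusted p = 0.0809). Same-numbered libraries deviated from their group means with correlations of 0.280, 0.0787 and 0.339 across genes. DMSO replicate 2 correlated best with corilagin replicate 1 (0.279), and every other library with its own number. These values cannot decide whether the numbers pair the libraries, since the deviations within a group of 3 depend on each other. Depth limits NLRC4, AIM2 and CASP5, which had at most 61 fragments in any library.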
